A study of Mus musculus with 4 samples.

Results

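Costimulatory and coinhibitory receptors of the immunoglobulin family were examined in NKT cells of the small intestinal lamina propria (SI-LP). The receptors are 10 genes picked by name, *Cd28*, *Icos*, *Cd226*, *Ctla4*, *Pdcd1*, *Lag3*, *Tigit*, *Havcr2*, *Btla* and *Cd96*, among the 25239 genes of the deposited table. NKT cells respond to lipid antigens on CD1d, and they were sorted as TCRβ+ cells that bind CD1d tetramers loaded with PBS57, without B220, CD11b, CD11c or CD8, from WT C57BL/6Jax mice aged 7 to 10 weeks, of both sexes, that received an anti-ARTC2 nanobody shortly before the tissue was taken. Of the 4 RNA-seq libraries, the labels mark replicates 3 and 4 as first and replicates 1 and 2 as second, all of 1 condition. The marks are called first and second experiment here, although the labels do not say what they refer to. The library names of the pairs also carry different prefixes and lane codes, which the labels do not explain. Whatever these codes stand for cannot be told apart from the marks. NKT cells of lymphoid organs were not analysed here. The values therefore describe levels within SI-LP NKT cells and their spread between libraries and between experiments. The labels do not say whether a library holds cells of 1 mouse or of several, so the spread between libraries may be in part technical.

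A T cell that meets antigen through its T cell receptor integrates a second set of signals from such surface receptors. CD28 and ICOS lower the threshold for activation and sustain cytokine production, whereas CTLA-4 takes the ligands CD80 and CD86 away from CD28. CD226 costimulates on binding CD155 (encoded by *Pvr*), for which TIGIT and CD96 compete. PD-1 (*Pdcd1*), LAG-3, TIM-3 (*Havcr2*) and BTLA restrain T cells, and several of these receptors are induced when T cells are stimulated repeatedly.

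Total counts on genes ran from 3882803 to 8732858 per library. Levels are given as TPM, counts corrected for gene length and scaled to 1 total in every library, which allows genes to be compared. The 7 T cell markers (*Cd3e*, *Cd3d*, *Cd3g*, *Cd247*, *Cd5*, *Lat* and *Zap70*) took 0.185% ± 0.0780 of the counts (SD, n = 4), and their summed level was 4972 and 5457 TPM in replicates 1 and 3 but 1976 and 2115 TPM in replicates 2 and 4. Epithelial markers (21 genes) ran the other way, with shares of 1.03% in replicate 2 and 3.03% in replicate 4 against 0.104% in replicate 1 and 0.0216% in replicate 3. *Cd8a* and *Cd8b1*, genes of cells that the sort removed, had at most 12 counts and 1 count in any library. Fewer T cells and less RNA per T cell cannot be told apart in such libraries. For this reason each receptor is also given scaled to the T cell markers, as TPM divided by the summed TPM of the 7 markers and multiplied by the mean of that sum. *Cd3e* alone had 3784, 1300, 3519 and 1453 TPM in replicates 1 to 4, so this scale mostly follows that gene. Its log2 fold change in edgeR, second over first experiment, was -0.26 (standard error 0.85), and the median of the 7 markers was -0.72. Ratios between experiments on this scale depend on these shifts.

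The 10 receptors spanned more than 2 orders of magnitude, with the 3 costimulatory genes at the top and *Btla*, *Havcr2* and *Pdcd1* at the bottom. The minimum of 10 counts in 2 or more libraries was met by 9 of the 10, which were tested, and not by *Pdcd1*. The 3 costimulatory genes summed to 1188 ± 697 TPM (SD, n = 4) and the 7 coinhibitory genes to 529.6 ± 355 TPM. Costimulatory transcripts made up 67.1% and 52.4% of the summed TPM of the 10 receptors in replicates 1 and 2, against 79.5% and 77.9% in replicates 3 and 4. The costimulatory part was thus the larger one in all 4 libraries and higher in both libraries of the first experiment.

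**Figure D1:**
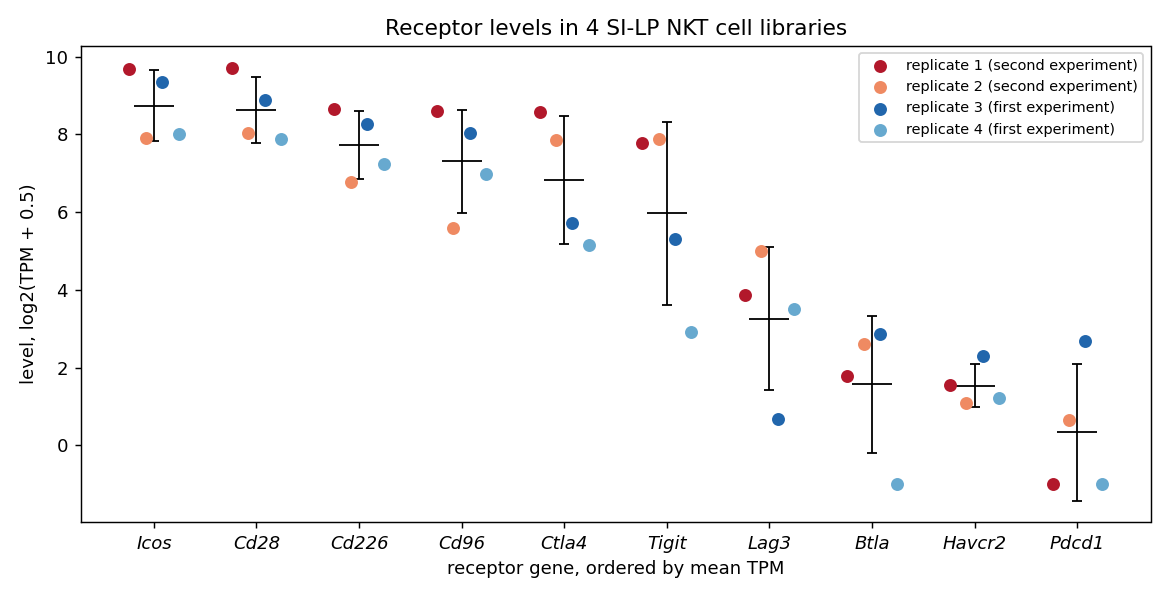
Level of each receptor, as log2(TPM + 0.5), in the 4 SI-LP NKT cell libraries, ordered by mean TPM. Points are libraries and the bars give the mean and SD of the 4 log2 values; *Icos* and *Cd28* lie highest, *Ctla4* and *Tigit* have both second-experiment points above both of the first, and the points at -1 are libraries with 0 counts.

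*Icos*, the inducible relative of CD28, had the highest mean level, at 493 ± 289 TPM (SD, n = 4; chromosome 1, 60977914 to 61000321, GRCm38). It measured 819 and 242 TPM in replicates 1 and 2 and 654 and 258 TPM in replicates 3 and 4. *Cd28*, the principal costimulatory receptor of T cells (chromosome 1, 60746388 to 60773359), had 453 ± 281 TPM, with 843 and 261 TPM in replicates 1 and 2 and 474 and 234 TPM in replicates 3 and 4. Both were high in replicates 1 and 3 and low in replicates 2 and 4, and the experiments overlapped. The mean percentiles among the 11689 genes tested were 97.0 for *Icos* and 96.8 for *Cd28*, and neither gene fell below percentile 94.6 in any library. *Icos* exceeded *Cd28* in 2 of the 4 libraries, so their order was not larger than the spread, and by CPM, without the correction for length, *Cd28* stood first.

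*Cd226*, the costimulatory receptor for CD155 (chromosome 18, 89197427 to 89270327), had 242 ± 136 TPM at mean percentile 93.1. Its levels were 400.4, 109, 308 and 149.6 TPM in replicates 1 to 4, again higher in replicates 1 and 3. *Cd96*, which binds the same ligand (chromosome 16, 46035657 to 46120248), had 207 ± 151 TPM at mean percentile 87.9. It measured 391, 48.1, 261 and 127 TPM in replicates 1 to 4, with replicate 2 the lowest at percentile 67.7 and the other libraries at 91.8 or above. *Cd96* was below *Cd226* in all 4 libraries.

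These 4 genes and the summed T cell markers were high and low in the same libraries. Single markers did so less clearly. In replicates 1 to 4 *Cd3d* had 197, 191, 369 and 149 TPM and *Zap70* 60.1, 35.6, 194 and 70.1 TPM, with replicate 4 above replicate 1. *Icos*, *Cd28*, *Cd226* and *Cd96* were each lower by over 1 log2 unit in replicate 2 than in 1 and in replicate 4 than in 3, which held for 8.08% of all genes tested and for 4 of the 7 T cell markers. The differences for *Icos* were -1.79 and -1.35 log2 units of CPM and those for *Cd28* -1.73 and -1.03, while the median of all genes tested was 0.13 and 0.08. Scaled to the T cell markers, *Icos* had 598, 444, 435 and 442 TPM in replicates 1 to 4, *Cd226* 292, 201, 205 and 257 TPM, and *Cd28* 615, 479, 316 and 401 TPM. The spread was narrower on this scale, the coefficient of variation (SD over mean) going from 0.586 to 0.164 for *Icos*, from 0.563 to 0.184 for *Cd226*, from 0.621 to 0.281 for *Cd28* and from 0.73 to 0.432 for *Cd96*. Among all genes tested the median coefficient moved the other way, from 0.654 to 0.807, and it became smaller for 27.3% of them. On the T cell scale the highest library exceeded the lowest by 1.37-fold for *Icos* and by 3.23-fold for *Cd96*, whose replicate 2 stayed low at 88.4 TPM.

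*Ctla4* and *Tigit* did not fall by over 1 log2 unit in both pairs of replicates and stood higher in the second experiment. In replicate 2 against 1 and 4 against 3, *Ctla4* differed by -0.75 and -0.59 log2 units of CPM and *Tigit* by 0.06 and -2.36. *Ctla4* (chromosome 1, 60909025 to 60915832), the coinhibitory competitor of CD28, had 381 and 232 TPM in replicates 1 and 2 and 52.5 and 35.0 TPM in replicates 3 and 4. *Tigit* (chromosome 16, 43648861 to 43664184), the coinhibitory competitor of CD226, had 219 and 235 TPM in replicates 1 and 2 and 39.3 and 7.09 TPM in replicates 3 and 4. The experiments did not overlap for either gene. These levels rest on 1771, 1524, 185 and 109 counts of *Ctla4* and 507, 767, 69 and 11 counts of *Tigit* in replicates 1 to 4, all above the smallest level the depth can show, set at 3 counts.

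The mean TPM of the second experiment was 7.01-fold that of the first for *Ctla4* and 9.77-fold for *Tigit*. Scaled to the T cell markers, *Ctla4* had 278, 427, 35.0 and 60.1 TPM and *Tigit* 160, 431, 26.2 and 12.2 TPM in replicates 1 to 4, so that the experiments stayed apart and replicate 2 was the highest. On that scale the mean ratios were 7.42 and 15.4, against 1.19 for *Icos*, 1.53 for *Cd28*, 1.07 for *Cd226* and 0.955 for *Cd96*. The coefficients of variation of *Ctla4* (0.932) and *Tigit* (1.23) on that scale were close to or above those in TPM (0.934 and 0.948). On the T cell scale 4 of the 9 receptors had both libraries of the second experiment above both of the first, *Icos*, *Cd28*, *Ctla4* and *Tigit*, and 0 had them below, against 16.1% and 6.66% of all genes tested. For *Icos* the gap was small, replicate 2 at 444 and replicate 4 at 442 TPM.

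**Figure D2:**
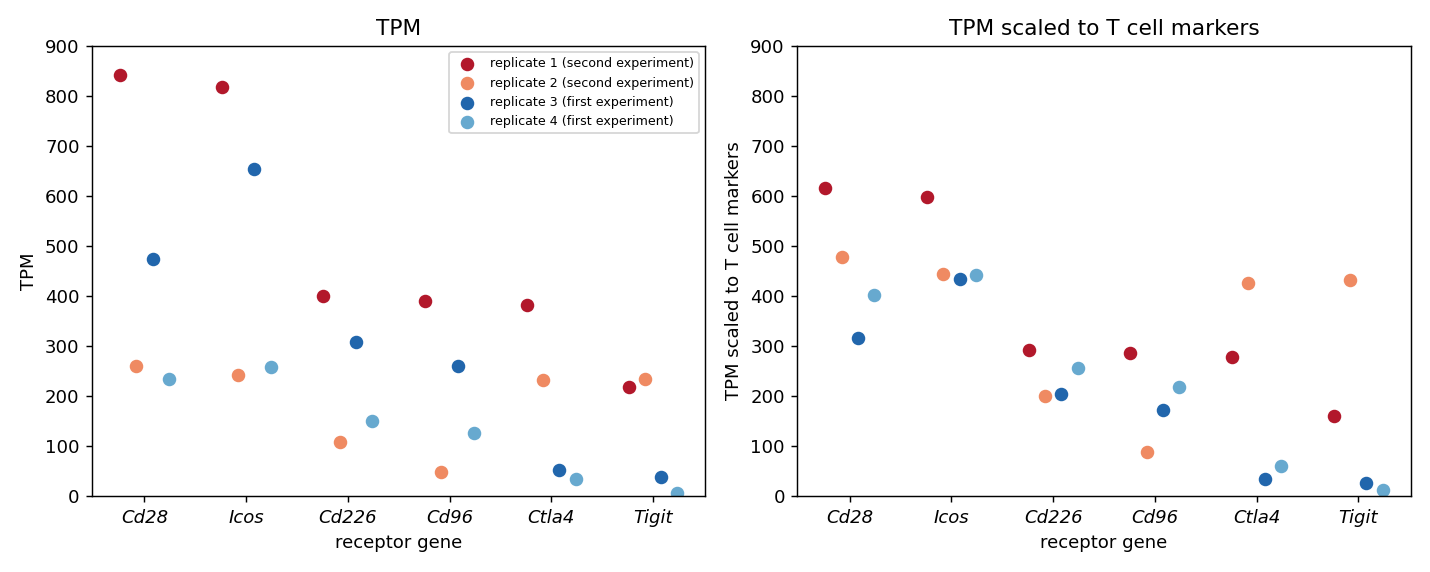
TPM of the 6 most abundant receptors in each library (left) and the same values scaled to the summed TPM of the 7 T cell markers (right), on equal linear axes with 1 point per library. On the right the points of *Icos* lie between 435 and 598 and those of *Cd226* between 201 and 292, whereas *Ctla4* and *Tigit* keep the second experiment above the first.

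Between the experiments 0 of the 9 receptors differed in the quasi-likelihood test of edgeR (adjusted p = 0.9997 for each, Benjamini-Hochberg over all genes), as did 0.00% of all genes tested. On counts simulated with the dispersion of these data, the test found 0 of 191 genes set 2 log2 units apart. A count of 0 therefore does not show that levels were alike, here or for the gene lists below. At an unadjusted p under 0.05, 2 of the 9 differed, both higher in the second experiment, where 1.21% of all genes tested were higher at that threshold, 0.907% lower and 2.12% different in either direction. With library size alone as the scaling, 248 of 325 such genes were higher, against 142 of 248 here. The 2 receptors in the edgeR test were *Ctla4*, with a log2 fold change of 2.51 (standard error 0.64, unadjusted p = 0.00654), and *Tigit*, with 2.98 (standard error 1.06, unadjusted p = 0.0283). DESeq2 called neither (adjusted p = 0.12 and 0.444) and called 0.351% of all genes. Neither difference therefore held after correction for the number of genes. The log2 fold changes of *Icos*, *Cd28*, *Cd226* and *Cd96* lay between -0.14 and 0.35, with standard errors from 0.78 to 0.98. In CPM, 3 of the 9 receptors had both libraries of the second experiment above both of the first, *Ctla4*, *Tigit* and *Lag3*, which held for 14.7% of all genes.

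Plasma cell markers and 3 of the 4 B cell markers that passed the filter moved with the experiment in the same way. Markers of plasma cells (6 genes) had shares of 0.655%, 0.839%, 0.0114% and 0.0387% in replicates 1 to 4. Of these genes, 6 of the 6 had both libraries of the second experiment above both of the first. For *Mzb1* and *Tnfrsf17*, with 10 or more counts in that experiment alone, passing the filter fixed this order. *Jchain*, which encodes the joining chain of secreted IgA, had 44022, 66662, 11 and 780 counts in replicates 1 to 4. Among the 8 B cell markers, *Cd79a* had 269 counts in replicate 1, 288 in replicate 2 and 0 in both others. For 3 of the 4 that passed the filter both libraries of the second experiment lay above both of the first. These 3 (*Cd79a*, *Cd79b* and *Fcrla*) reached 10 counts in the second experiment alone, so passing the filter fixed their order. The 14.7% of all genes tested with this order is therefore not a fair comparison. The experiments overlapped for *Blk*, with 0, 17, 4 and 12 counts in replicates 1 to 4. Markers of regulatory T cells, which are known for high CTLA-4 and TIGIT, were low apart from *Ikzf2*, which had 3278, 1748, 1526 and 543 counts in replicates 1 to 4 and made up most of their sum. *Foxp3*, their defining factor, had 4, 31, 2 and 0 counts and *Ccr8* 2, 2, 0 and 0. In CPM both libraries of the second experiment lay above both of the first for these 2 genes, at few counts. Of the 4 regulatory T cell markers that passed the filter, 0 lay above in this way. The opposite held for 2 of the 4, *Lrrc32* and *Ikzf4*, with both libraries of the second experiment below both of the first (14.4% of all genes tested). *Gpr83* had 0 in all 4 libraries, and the 7 genes took 0.0486%, 0.0218%, 0.0321% and 0.0184% of the counts in replicates 1 to 4. The part of B lineage transcripts or of regulatory T cells in the levels of *Ctla4* and *Tigit* was not tested.

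**Figure D3:**
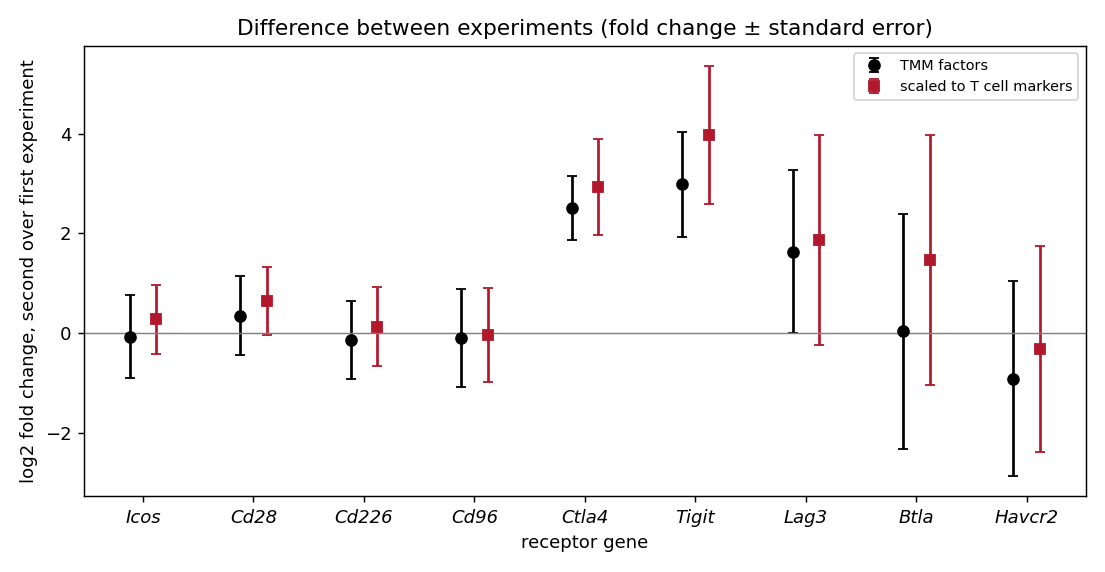
Log2 fold change of each tested receptor between the second and the first experiment, with its standard error, from edgeR with TMM factors (circles) and with libraries scaled to T cell marker counts (squares), an alternative chosen after seeing the data. *Ctla4* and *Tigit* lie above 2 in both fits, and the intervals of *Icos*, *Cd28*, *Cd226* and *Cd96* in the TMM fit include 0.

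Receptors that share ligands, with *Icos* set beside *Cd28* and *Ctla4*, were next compared within each library, where the scaling of the library cancels. The TPM ratio of *Ctla4* to *Cd28* was 0.452 and 0.892 in replicates 1 and 2, against 0.111 and 0.15 in replicates 3 and 4, below 1 in all 4 libraries. Its mean was -1.80 ± 1.39 on the log2 scale (SD, n = 4; exact sign-flip permutation test, two-sided, p = 0.125, adjusted p = 0.25 over 6 ratios). With 4 libraries 0.125 is the smallest p this test can give. *Icos* to *Cd28* was the steadiest ratio, at 0.972, 0.927, 1.38 and 1.10 in replicates 1 to 4. *Ctla4* made up 18.7% and 31.6% of the summed TPM of *Cd28*, *Icos* and *Ctla4* in replicates 1 and 2, against 4.45% and 6.65% in replicates 3 and 4, while the part of *Cd28* stayed between 35.5% and 44.4%. The 3 genes lie side by side on chromosome 1 on the plus strand, and none of the 10 receptors shares exon bases with another gene of the table.

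Around CD155, the ratio of *Cd96* to *Cd226* was 0.976, 0.44, 0.847 and 0.849 in replicates 1 to 4, with replicate 2 the low one. The ratio of *Tigit* to *Cd226* was 0.547 and 2.15 in replicates 1 and 2, against 0.128 and 0.0474 in replicates 3 and 4. *Tigit* therefore exceeded *Cd226* in replicate 2 alone and made up 59.9% of the summed TPM of the 3 receptors there, against 21.7%, 6.47% and 2.50% in replicates 1, 3 and 4. The mean log2 ratio of *Tigit* to *Cd226* was -1.76 ± 2.37 (exact sign-flip permutation test, two-sided, p = 0.375, adjusted p = 0.45), an SD larger than the mean. It was -2.71 without replicate 2 and -0.91 without replicate 4.

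**Figure D4:**
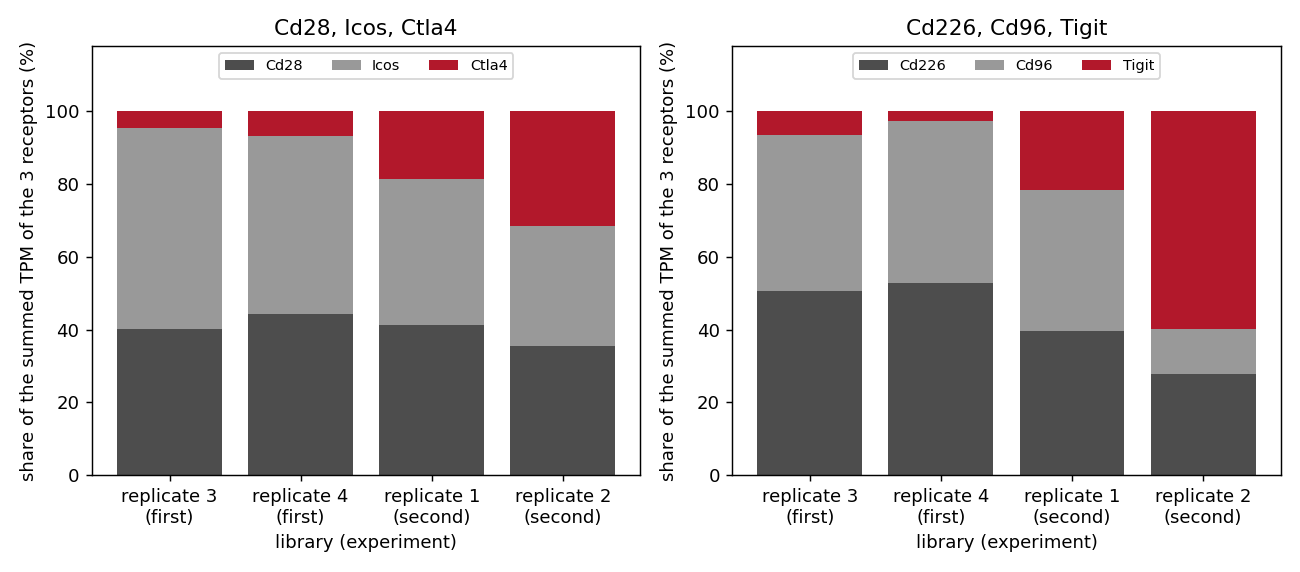
Share of each receptor in the summed TPM of *Cd28*, *Icos* and *Ctla4* (left) and of *Cd226*, *Cd96* and *Tigit* (right), with 1 stacked bar per library, the first experiment on the left. *Ctla4* takes 4.45% and 6.65% in the first experiment and 18.7% and 31.6% in the second, and *Tigit* takes 59.9% in replicate 2.

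The sequences just upstream of *Ctla4* and *Tigit*, the pair that stood higher in the second experiment, are shown with that of *Cd96*, which did not. RefSeq's GRCm38.p6 table held a promoter for 6 of the 10 receptors, and each sequence below is the 250 bases before the gene's start, 5′ to 3′ on the gene's strand. Capitals mark the core letters of NFAT sites (GGAAA, or TTTCC on the other strand), NFAT being a factor that T cell receptor signals activate.
Ctla4 (chr1:60908775-60909024, plus strand): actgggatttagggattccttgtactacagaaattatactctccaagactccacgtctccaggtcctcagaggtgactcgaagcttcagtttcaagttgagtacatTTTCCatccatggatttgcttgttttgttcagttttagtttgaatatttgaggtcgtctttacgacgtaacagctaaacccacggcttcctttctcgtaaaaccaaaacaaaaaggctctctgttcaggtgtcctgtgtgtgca
Tigit (chr16:43664185-43664434, minus strand): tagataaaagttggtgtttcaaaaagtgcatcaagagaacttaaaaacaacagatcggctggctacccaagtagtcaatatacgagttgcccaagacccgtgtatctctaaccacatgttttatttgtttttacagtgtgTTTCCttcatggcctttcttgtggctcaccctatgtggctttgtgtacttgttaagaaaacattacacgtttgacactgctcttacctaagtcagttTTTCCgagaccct
Cd96 (chr16:46120249-46120498, minus strand): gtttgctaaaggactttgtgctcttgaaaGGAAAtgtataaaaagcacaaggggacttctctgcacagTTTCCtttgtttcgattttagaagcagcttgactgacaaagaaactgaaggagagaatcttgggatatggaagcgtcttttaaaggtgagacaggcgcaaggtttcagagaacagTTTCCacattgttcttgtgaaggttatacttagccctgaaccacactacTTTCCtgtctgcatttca
These letters occurred 1 time upstream of *Ctla4*, 2 times upstream of *Tigit* and 4 times upstream of *Cd96*, on either strand, and at least once in 55.6% of all 32851 such windows in the table, so they are common. The AP-1 letters TGANTCA, found in 6.75% of windows, and an NF-κB motif of GGG and CC set 5 bases apart, found in 45.8%, were in none of the 3 windows. The Runx letters TGTGGT, found in 14.0% of windows, occurred 1 time each upstream of *Tigit* and *Cd96* and did not occur upstream of *Ctla4*. The search covered both strands, and none of the matches in the 3 windows overlapped another.

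*Lag3*, which encodes a receptor for MHC class II (chromosome 6, 124904359 to 124911705), was low, at 14.4 ± 12.7 TPM and mean percentile 36.7. It had 14.1 and 31.6 TPM in replicates 1 and 2 and 1.10 and 10.9 TPM in replicates 3 and 4, and its CPM exceeded that of replicate 1 in replicate 2, and that of replicate 3 in replicate 4, by over 1 log2 unit. That held for 19.0% of all genes tested and for 17 of the 21 epithelial markers, and their part in the level of *Lag3* was not tested. The experiments overlapped for *Lag3* once scaled to the T cell markers. Its log2 fold change between experiments was 1.63 with a standard error of 1.64, within the spread, and ran from 0.76 without replicate 3 to 4.07 without replicate 4.

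*Btla*, *Havcr2* and *Pdcd1* were the lowest of the receptors, with at most 62 counts in any library. *Btla*, an inhibitory receptor for HVEM (chromosome 16, 45224337 to 45252895), had 23, 62, 40 and 0 counts in replicates 1 to 4, or 2.96, 5.65, 6.79 and 0 TPM, where a count of 0 in replicate 4 allows up to 0.576 TPM. *Havcr2*, which encodes TIM-3 (chromosome 11, 46454931 to 46481254), had 16, 15, 22 and 8 counts, or 2.44, 1.62, 4.43 and 1.82 TPM. It was present in every library at a low level, with too few counts to say whether the libraries were alike. *Pdcd1*, which encodes PD-1 (chromosome 1, 94038305 to 94052553), had 0, 7, 21 and 0 counts in replicates 1 to 4. Its level was 5.97 TPM in replicate 3 (21 counts, exact 95% Poisson interval 13.0 to 32.1 counts) and 1.07 TPM in replicate 2, while 0 counts, by the limit of 3 counts, allow up to 0.647 and 0.965 TPM in replicates 1 and 4. For these 3 genes the order of their means did not exceed the spread. Intervals and limits cover counting error only.

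In the order of mean levels, 2 of the 9 neighbouring pairs kept their order in all 4 libraries, *Cd28* above *Cd226* and *Cd226* above *Cd96* (exact sign-flip permutation test, two-sided, p = 0.125 and adjusted p = 0.45 for each). The ranges of all 9 pairs overlapped across libraries. With 4 libraries this test cannot go below 0.125, so it says nothing on whether any of the 9 orders holds.

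By profile, the root mean square difference of centred log2 CPM over the 4 libraries, *Icos* and *Cd226* were the most alike pair of receptors (0.137), and *Ctla4* and *Tigit* were nearest to each other at 0.821. The median profile of the 9 receptors was 0.73, -0.70, 0.62 and -0.65 in replicates 1 to 4. Outside the receptors it was most like *Cd44* (0.0313), which encodes an adhesion receptor of activated T cells, and *Elf1*, *Lyst*, *Pde3b* and *Parvg* (0.036 to 0.06). Of the 11680 other genes, 466 (3.99%) lay within 0.3 of it.

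The ligands of these receptors were measured in the same RNA. Of 14 ligand genes, 12 passed the filter and 0 differed between experiments (0 at an unadjusted p under 0.05). *Lgals9*, which encodes the TIM-3 ligand galectin-9, was highest at 555.1 ± 424 TPM, followed by *Ceacam1* at 136 ± 157 TPM. *Lgals9* had 268, 1183, 348 and 421 TPM and *Ceacam1* 16.0, 334.6, 2.79 and 189 TPM in replicates 1 to 4, both higher in replicate 2 than in 1 and in 4 than in 3, as the summed epithelial markers were. *Cd80* and *Cd86*, the ligands of CD28 and CTLA-4, were at the bottom, at most 17 and 5 counts in any library, whereas *Cd274*, which encodes PD-L1, had 180, 59.1, 38.03 and 48.0 TPM and *Pvr* 100.1, 66.9, 89.7 and 26.0 TPM in replicates 1 to 4. *Cd80*, *Cd86*, *Cd274* and *Pvr* were singled out after their values were seen.

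All 16 genes listed for signalling downstream of CD28 passed the filter, and 0 differed between the experiments. Of them, 9 were lower by over 1 log2 unit in replicate 2 than in 1 and in 4 than in 3, against 8.08% of all genes tested. The list includes *Pdk1*, which encodes a pyruvate dehydrogenase kinase and not the PI3K pathway kinase of *Pdpk1*, and which was not among the 9. The highest were *Pik3r1*, which encodes the regulatory subunit of PI3K, at 392 ± 247 TPM, and *Lcp2*, which encodes the adaptor SLP-76, at 347.6 ± 205 TPM. Of 10 listed genes of phosphatases and adaptors, 9 passed the filter. *Ptpn22*, a phosphatase that restrains T cell receptor signals, was highest at 654 ± 452 TPM, and *Inpp5b* next at 106 ± 36.2 TPM. Among the 9, 1 was lower in the second experiment at an unadjusted p under 0.05, against 0.907% of all genes tested, and 0 after adjustment.

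Of 17 transcription factors known for inducing or limiting these receptors, 15 passed the filter and 0 differed after adjustment (1 lower in the second experiment at an unadjusted p under 0.05, against 0.907% of all genes). *Nr4a1* and *Nr4a3*, which antigen receptor signals induce, were highest, at 870 ± 300 and 519 ± 299.8 TPM, and *Eomes* had 0 counts in all 4 libraries. Of 15 other receptors listed, chiefly of the immunoglobulin family, 13 were in the table and 10 passed the filter, with 0 different between experiments. *Cd5* and *Cd6*, among the 10, encode scavenger receptor cysteine-rich proteins instead. *Cd2* was highest at 246 ± 153 TPM and *Cd48* next at 140 ± 112 TPM.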

How the data were processed

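The authors deposited raw counts per gene for SI-LP NKT cells, from libraries made with a Nugen Ovation ultralow kit. Per the file header and the methods, paired reads were aligned with HISAT2 and primary alignments counted on exons with featureCounts 1.6.4, without strand, on a RefSeq mm10 annotation; the labels name GRCm38.p6 and the methods GRCm39, and coordinates are given as deposited. Of 6 library columns, 4 match a label and the other 2 were not used. Gene lengths deposited by the authors gave TPM. CPM was scaled with TMM factors. *Rn45s* held 28.1% and 21.6% of counts in replicates 3 and 4 (first experiment) against 11.4% and 7.36% in replicates 1 and 2. The TPM totals include *Rn45s*, so ratios of TPM between the experiments carry this difference.

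The 11689 genes with 10 or more counts in 2 or more libraries were compared between experiments with edgeR 4.0.16 (R 4.3.3) and, as an alternative, DESeq2 1.42.0; the standard error is the log2 fold change over the root of the F statistic. Ratios used a pseudocount of 0.5 TPM. On simulated counts with these sizes and a low dispersion, edgeR found 187 of 195 genes that were set 2 log2 units apart, and 0 of 191 when the dispersion was that of these data. Other tools were Python 3.11.15, numpy 2.4.6, pandas 2.3.3, scipy 1.17.1 and matplotlib 3.10.9.

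The receptors and lists were chosen with earlier results of these data known. Genes named are the receptors, the 2 of each list with the highest mean TPM, list genes at 0 counts in all 4 libraries, the 5 genes nearest the median profile and each receptor's nearest receptor; *Foxp3* and others were added as defining markers or after their values were seen. In the marker lists the 2 highest were *Cd3e* and *Cd3g* (T cell), *Ikzf2* and *Il10* (regulatory T cell), *Cd79a* and *Cd79b* (B cell), *Jchain* and *Xbp1* (plasma cell), *Lyz2* and *Cd68* (myeloid), *Kit* and *Cpa3* (mast cell), *Gata3* and *Areg* (innate lymphoid), *Lyz1* and *Tff3* (epithelial) and *Dcn* and *Pecam1* (stromal). Genes at 0 include *Clec9a* among 12 myeloid markers (0.0108% of counts), *Mcpt1*, *Mcpt2*, *Cma1*, *Tpsb2* and *Fcer1a* among 7 mast cell markers (0.00269%), *Ncr1*, *Klra8* and *Klra4* among 9 markers of innate lymphoid and NK cells (0.0178%) and *Kdr* and *Vwf* among 10 stromal and endothelial markers (0.0104%). A planned search for protein motifs was not run, since no protein sequences were used here. The result of 1 listed gene is not reported here.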

Additional observations from a re-analysis of the deposited data

Results flagged for a closer look

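In CPM, *Pdcd1* had a library far from the others: replicate 3 lay above the next library by 0.857 of the range. This was the 1 such case among 37 values looked at, and 1.85 are to be expected by chance, and in TPM *Pdcd1* did not.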

How the results depend on the processing

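Genes called between experiments by edgeR (0, with 248 at an unadjusted p under 0.05) became 41 with DESeq2 and 60 without a filter, and 0 to 7 with one replicate left out (7 without replicate 3 and 6 without replicate 4). Median-of-ratios factors, library size alone, the filter on all 4 libraries and scaling to T cell markers (chosen after seeing the data) called 0, with 256, 325, 257 and 159 at an unadjusted p under 0.05. No alternative called a receptor. *Ctla4* and *Tigit* stayed higher in the second experiment under all 10 alternatives, at 2.12 to 2.92 and 2.23 to 4.68 log2 units (edgeR or DESeq2 adjusted p from 0.12 and from 0.444 up to 0.999989). Scaling to T cell markers moved the median of all genes from 0.03 to 0.48, and library size alone to 0.28. Of the genes at an unadjusted p under 0.05, 142 of 248 were higher in the second experiment, but 119 of 534 without replicate 2, 446 of 470 without replicate 4 and 107 of 341 without replicate 1.

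Differences near 0 changed sign. With library size alone, *Icos*, *Cd226* and *Cd96* came to 0.18, 0.10 and 0.092, and scaled to T cell markers *Icos* and *Cd226* to 0.27 and 0.12. *Icos*, *Cd226* and *Cd96* came to 0.56, 0.52 and 0.73 without replicate 2 and to 0.74, 0.47 and 0.49 without replicate 3. *Cd28* came to -0.73 without replicate 1 and -0.08 without replicate 4, and *Btla* to -0.46 without replicate 2 and -0.95 without replicate 4. With one replicate left out the differences ran from -0.73 to 0.97 for *Cd28*, -1.20 to 0.74 for *Icos*, -1.35 to 0.52 for *Cd226*, -2.29 to 0.73 for *Cd96*, -0.95 to 8.04 for *Btla* and 0.76 to 4.07 for *Lag3*, whose mean went from 14.4 to 8.69 TPM without replicate 2. The causes were not tested.

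Neighbouring pairs in constant order (2 of 9) became 4 with CPM and 2 to 4 with one replicate left out, where fewer libraries need to agree in order. The log2 ratio of *Icos* to *Cd28* (0.11) became -0.29 with CPM and ran from -0.0031 (without replicate 3) to 0.19 with one replicate left out. The other 5 ratios kept their direction under all 7 alternatives but not their size. With CPM, *Ctla4* to *Cd28* became -2.95, *Tigit* to *Cd226* -3.08 and *Tigit* to *Cd96* -2.47, and *Cd96* to *Cd226* (-0.42) was -0.17 without replicate 2. All 60 alternative mean levels moved by less than 1 SD, which is large. No paired analysis was possible because the experiments share no replicate number.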
